A study of Mus musculus with 12 samples.

Results

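The cytosolic ribosomal protein genes were followed here in the ileum of mice given zinc, dexamethasone or both. They were taken by symbol, as the protein-coding genes of the counts table whose mouse symbol begins with Rpl or Rps and a digit, or is Rplp0, Rplp1, Rplp2 or Rpsa, with the Rps6k kinases and symbols ending in -ps and a number left out. Of the 54838 genes in the table, 86 were members, 52 named for the large and 34 for the small ribosomal subunit. A further 7 symbols, Rps4l among them, fitted the pattern but were not annotated as protein coding. One member, Rps19bp1, fits the symbol but encodes a binding partner of Rps19 and not a ribosomal protein. Fau and Rack1 encode ribosomal proteins under other names, lie outside the symbol rule, and are given beside the members. A filter on low counts left 15938 genes to test, 82 of the members among them. The members that did not pass were Rpl3l, Rpl10l, Rpl24 and Rpl39l.

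The data were 12 bulk RNA-seq libraries of ileum from female C57BL/6J mice, an inbred strain, aged 8 to 14 weeks, with no transgene or deletion, in 4 groups of 3 mice. All mice drank water for 7 days, plain in the water groups and with 25 mM ZnSO4 in the ZnSO4 groups, and were then injected intraperitoneally with PBS or with 200 µg of Dex (dexamethasone, a synthetic ligand of the glucocorticoid receptor) in PBS. The ileum was taken 2 h after the injection. The groups are water + PBS, the control, then water + Dex, ZnSO4 + PBS and ZnSO4 + Dex. The series asks how gene expression in the ileum changes with Dex, with zinc and with their combination. The libraries held 10760132 to 11827487 counted reads (median 11388606), so depth differed little. Markers of distal enterocytes (Slc10a2, Fabp6, Slc51a and Slc51b) summed to 5348 to 10307 CPM (read counts scaled to a fixed library total) and all 4 were detected, and those of proximal enterocytes summed to 3.99 to 103. The summed level of 9 B cell markers ran from 12.5 to 697 CPM and was above 100 in 5 of the 12 libraries, and the ZnSO4 + Dex mouse 2 was low in 7 enterocyte markers, at 9537 CPM against 15982 to 24267 in the others. In whole tissue, fewer cells of a type and less RNA per cell cannot be told apart.

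Ribosomal proteins are built with rRNA into the small and the large subunit of the ribosome, at close to equal numbers of each protein per ribosome. Their mRNAs are among the most abundant of most cells, and most begin with a C followed by a run of pyrimidines, the 5′ terminal oligopyrimidine (TOP) motif, through which mTORC1 and its effector Larp1 control their translation together with that of elongation factors. The intestinal epithelium renews itself within days from dividing crypt cells and has a steady need for new ribosomes. A few ribosomal proteins have a paralogue that can take their place in some tissues, such as Rpl3l in muscle and Rpl10l and Rpl39l in testis.

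The bases around the annotated start of transcription are shown for 8 members, because members of this family are known for a shared start. The windows run from 10 bases before to 15 bases from the start on, 5′ to 3′, with the longest run of pyrimidines in capitals, as RefSeq gives them for GRCm38. The first 6 are the members called, at an adjusted p under 0.05 with edgeR, in the mean Dex effect (the average of the Dex effects in water and in ZnSO4 mice), and the last 2 are those called only for Dex within ZnSO4 mice.
Rps4x, chrX:102189377-102189401, minus strand: gctgggcggagcaacccaggCTCCa
Rpl13a, chr7:45128731-45128755, minus strand: cctgcgacaagaCCTCCTCCTTTCC
Rps6, chr4:86857353-86857377, minus strand: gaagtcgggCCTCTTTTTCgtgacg
Rpl10a, chr17:28328461-28328485, plus strand: gCCCCCCCagcggccgcaaactgca
Rpl10, chrX:74270806-74270830, plus strand: tacagtggaagataggccgCCTata
Rplp0, chr5:115559457-115559481, plus strand: cgggTTTCgaggaccgcctggttct
Rpl27a, chr7:109519185-109519209, plus strand: cgtgagCTCCTCCCTTTTCCCTTTC
Rpl36a, chrX:134585644-134585668, plus strand: cccaggcaccgcctataaaCTTCCg
Of these, Rps6 has a C as its first transcribed base with 4 or more pyrimidines behind it, and the run of Rpl13a starts 2 bases further on. Over the 66 members with a RefSeq window, 13 (19.7%) began with a C and 4 pyrimidines, against 2.17% of 17492 protein-coding genes. The motif was read as the letter C and 4 letters C or T, on the strand of the gene only. It had to begin at the exact base of the annotated start taken for each gene. Runs that crossed the start without a C at that base, as in Rpl27a (19 pyrimidines) and Rpl7a (17), were not counted. Neither were runs that began just after it, so the share can be too low. With the less strict measure of a run of 8 or more pyrimidines anywhere in the window the shares were 30.3% of the members and 9.27% of protein-coding genes. The members with a C and 4 pyrimidines at the start did not stand apart in the mean Dex effect, with a median LFC (log2 fold change) of 0.13 over 13 against 0.13 over the 49 tested members whose window lacked it. This split follows the annotated base, so members with a motif placed off it may be among the 49.

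Together the members took 1.87% to 2.57% of all counted reads. As a share of the library size after TMM scaling, which allows for differences in library composition, the groups held 2.04 ± 0.165% in water + PBS, 2.13 ± 0.0802% in water + Dex, 1.96 ± 0.12% in ZnSO4 + PBS and 2.29 ± 0.182% in ZnSO4 + Dex (mean ± SD, n = 3 each). The ZnSO4 + PBS mice, at 1.83, 2.07 and 1.99%, lay below all mice given Dex, if narrowly, at 2.22, 2.1 and 2.07% in water + Dex and 2.08, 2.36 and 2.42% in ZnSO4 + Dex, and the other ranges overlapped. As a share of the plain library totals, water + Dex (1.99 ± 0.105%) was not above water + PBS (2.06 ± 0.172%), so the order of these groups depends on the scaling. Levels were compared between genes only per length, as counts per kilobase of exon scaled to the same total in each library. On that scale the highest mean levels over the 12 libraries (± SD) were those of Rplp1, an acidic protein of the P stalk, at 2569.9 ± 265, Rps15 at 1476 ± 161, Rplp0, the base of the P stalk, at 1277 ± 94.5, Rpl4 at 1269.6 ± 120.5 and Rps29 at 1097 ± 113. On this scale Rplp1 stood above all others by more than the spread, while from Rps15 on each differed from the next in this order by less than the sum of their SDs.

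**Figure D1:**
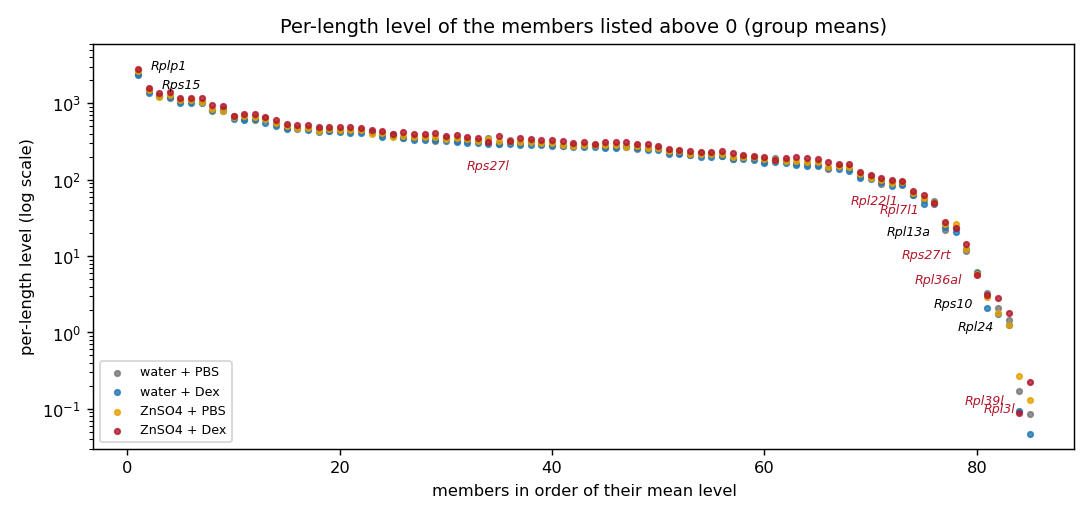
Per-length level (log axis, counts per kilobase of exon, scaled to the same total in each library) of the 85 members with any read, in order of their mean over 12 libraries, with each point a group mean of 3 mice and paralogues named in red. For most members the 4 group means lie close together, while the levels differ widely between members. The lowest include the paralogues Rpl36al and Rps27rt and the core members Rps10 and Rpl24, down to Rpl39l and Rpl3l with 3 reads or fewer in any library.

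The lowest tested members were Rpl23a at 2.12 ± 0.918, Rps10 at 2.88 ± 0.724, the paralogues Rpl36al at 5.93 ± 0.95 and Rps27rt at 12.8 ± 3.92, and Rps19bp1 at 23.5 ± 3.43. Rpl23a and Rps10 are core proteins of the large and the small subunit, and both belong to every ribosome. Reads that fit more than 1 place in the genome had been left out of the counts. Of the 31-base stretches in the coding transcript of Rpl23a, 89.8% also stood in an annotated transcript of another gene, and of those of Rps10 96.8%. The 31 bases stand in for the read, whose length is not given in the sources used here. Across the 82 tested members the median was 64.0%, the range 0% to 99.0%, and 61 members were above 50%. For the 10 tested members with at most 10% of such stretches over all their transcripts the median LFC was 0.12 in the mean Dex effect and 0.20 for Dex in ZnSO4 mice, close to those of all tested members given with the comparisons. In the coding transcript these 10 ran from 0% shared, in Rps19bp1, to 60.5%, in Rpl35a. They are thus not a set of low sharing by that measure, and the part of shared sequence in the LFC was not tested. In the coding transcript Rpl36 (94.1% shared, per-length level 849 ± 111) and Rps27 (98.7% shared, 661 ± 96.1) had shares above that of Rpl23a. Over all transcripts of a gene the shares were 83.0% for Rpl23a, 26.0% for Rps10, 94.1% for Rpl36 and 27.6% for Rps27. The part of shared sequence in the levels was not tested. The levels are those of reads that could be placed, and the order depends on the length they are divided by. With uniquely placed stretches of all transcripts as length Rpl36, at 15479, stood above Rplp1, at 10961, and Rpl23a, at 12.5, above Rpl36al, at 7.58, and Rps10, at 3.85. With those of the coding transcript alone, a length chosen after seeing the data, Rps27 was highest. Rpl24 (counts of 1, 14, 6 in water + PBS, 5, 5, 8 in water + Dex, 7, 5, 6 in ZnSO4 + PBS, 9, 13, 3 in ZnSO4 + Dex), also a core protein, had 82.2% of its stretches shared and fell under the filter.

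Differences between the groups were small. Relative to the mean of the water + PBS mice, the median member stood at -0.034, 0.12 and -0.10 (log2 of CPM) in the 3 water + PBS mice, at 0.11, 0.026 and 0.011 in water + Dex, at -0.17, 0.02 and -0.022 in ZnSO4 + PBS and at 0.018, 0.20 and 0.25 in ZnSO4 + Dex. The ZnSO4 + Dex mice 2 and 3 were the highest of all, while mouse 1 of that group lay within the range of the other groups. The pooled SD of these medians within a group was 0.10.

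**Figure D2:**
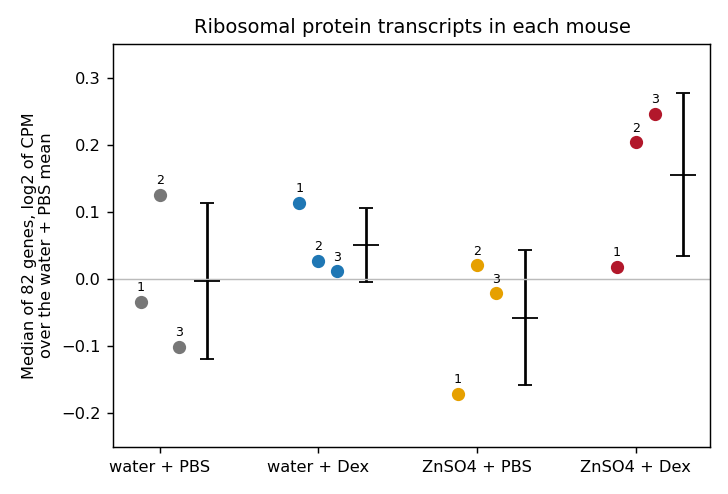
Median of the 82 tested members in each mouse (log2 of CPM over the water + PBS mean), with numbered points for the 3 mice of each group and bars for the mean ± SD. ZnSO4 + Dex mice 2 and 3 lie highest, at 0.20 and 0.25, and ZnSO4 + PBS mouse 1 lowest, at -0.17.

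In water mice, where no member was called, Dex gave a median LFC of 0.055 over the 82 members, beside -0.014 over all genes tested, with 68 members (82.9%) above 0 (48% of all genes). No member was called at an adjusted p under 0.05 by edgeR's quasi-likelihood test (background 5.41% of all genes called higher and 4.51% lower), 1 was higher and 0 were lower at an unadjusted p under 0.05 (background 11.1% and 11.7%), and DESeq2 called 0. The lowest unadjusted p were those of Rpl13a and Rps4x. Rpl13a, a large-subunit protein also known from the GAIT complex that silences translation, had an LFC of 0.22 ± 0.091 (SE, adjusted p = 0.179). Rps4x, an X-linked small-subunit protein, had an LFC of 0.17 ± 0.086 (SE, adjusted p = 0.264). In water mice the summed markers of enterocytes (7 of 7 measured, 21818 to 24267 CPM against 15982 to 18682), distal enterocytes, goblet cells and proximal enterocytes were higher with Dex without overlap, and their part in the members' values was not tested.

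In ZnSO4 mice, Dex gave a median LFC of 0.22, beside 0.0091 over all genes, with 80 of 82 members above 0 (51.3% of all genes). With edgeR 3 members were called higher and 0 lower (background 6.65% higher, 7.08% lower), and none of them also had an LFC above 0.8 in size (5.81% of all genes passed both criteria). At an unadjusted p under 0.05, 46 members were higher and 0 lower (background 12.9% and 13.4%), and in 31 (37.8%) the 3 ZnSO4 + Dex mice all lay above the 3 ZnSO4 + PBS mice (background 14.2%). The called members were all of the large subunit. Rpl36a, which lies near the exit site of tRNA, had normalised read counts (counts scaled to the mean TMM library size) of 1280.2, 1304 and 1117 in the water + PBS mice, 1303, 1231 and 1156 in the water + Dex mice, 1113, 1235 and 1259 in the ZnSO4 + PBS mice and 1333, 1526 and 1584 in the ZnSO4 + Dex mice. Its ZnSO4 + Dex mice lay above all others, with an LFC in ZnSO4 mice of 0.30 ± 0.09 (SE, adjusted p = 0.0465) and in water mice of -0.0044 ± 0.09 (SE, adjusted p = 0.987). These 2 LFC were not shown to differ, since no member was called in the interaction given below. The call of Rpl36a was kept in 2 of the 12 fits that left out a mouse. Rpl27a had counts of 3201, 3517 and 3119 in the water + PBS mice, 3471, 3467 and 3326 in the water + Dex mice, 2887, 3199 and 3255 in the ZnSO4 + PBS mice and 3503, 3806 and 3866 in the ZnSO4 + Dex mice. The ZnSO4 + Dex mice were above the ZnSO4 + PBS mice, though mouse 1 was just below the highest water + PBS mouse, and the LFC was 0.26 ± 0.077 (SE, adjusted p = 0.0468). The third, Rpl10a, is described with the mean effect. The count was 6 without ZnSO4 + Dex mouse 1, 3 without water + PBS mouse 2 or 3, 1 without water + Dex mouse 1 and 0 without any other mouse. It was also 0 with the 2 ZnSO4 groups fitted alone, and 10 (12.2%) with DESeq2, beside 6.88% of all genes called higher. In this contrast the summed markers of T cells were lower (6 of 6 measured, 19.8 to 23.4 CPM against 24.9 to 66.9) and those of enteroendocrine cells (4 of 4, 239 to 308 CPM against 215 to 229) and proximal enterocytes (4 of 4, 30.1 to 103 CPM against 3.99 to 16.1) were higher, without overlap. None of these markers was at 0 in all libraries, and their part in the result was not tested.

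**Figure D3:**
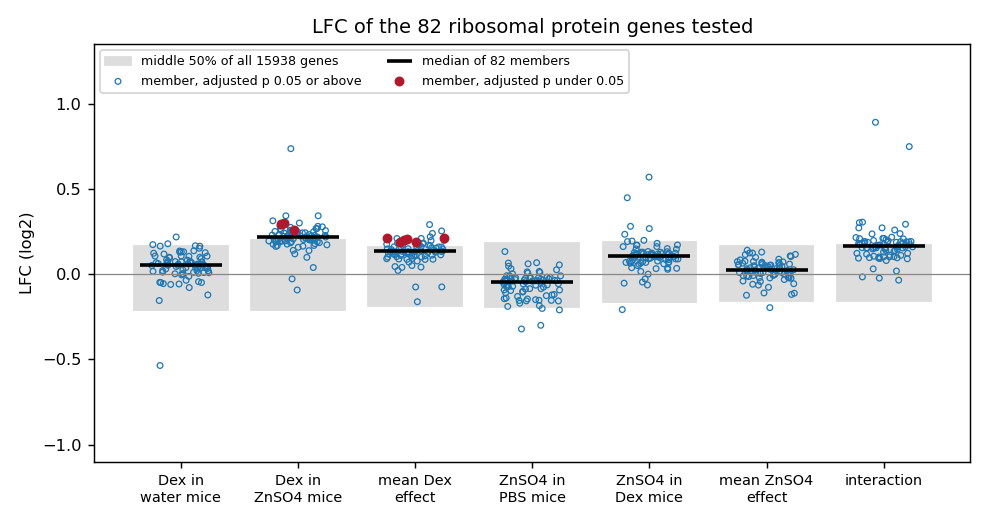
LFC (log2) of the 82 tested members in each comparison, with filled points for members at an adjusted p under 0.05 by edgeR, bars for the median and grey boxes for the middle 50% of all 15938 genes. In ZnSO4 mice given Dex the median was 0.22 and 3 members passed, and in the mean Dex effect the median was 0.13 and 6 passed.

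Averaged over water and ZnSO4 mice, 6 members rose with Dex and 0 fell (background 10.4% higher, 11.2% lower), and the share called higher, 7.32%, was not above that of all genes. The median LFC was 0.13, beside -0.0014 over all genes tested and 0.014 over the 4640 genes with a mean of at least 500 normalised counts, and 79 of 82 members were above 0 (49.8% of all genes). The large subunit (48 tested, median 0.14, 4 called) and the small subunit (34 tested, median 0.12, 2 called) differed little. Over the members the LFC ran from -0.16 (Rps10) to 0.29, with the middle 50% from 0.11 to 0.17. At an unadjusted p under 0.05, 32 were higher and 0 lower (background 16% and 17.4%). None of those called also had an LFC above 0.8 in size (6.31% of all genes passed both criteria), and in 1 member, Rpl4, all 6 Dex mice lay above all 6 PBS mice (background 4.85%), though it was not called and was named for this after its values were seen. Its LFC was 0.17 ± 0.065 (SE, adjusted p = 0.0865). DESeq2 called 16 higher and 0 lower, beside 10.5% of all genes called higher. Of the summed cell type markers, those of proximal enterocytes were higher in all 6 Dex mice than in all 6 PBS mice (30.1 to 103 CPM against 3.99 to 24.1), and their part in the result was not tested.

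Of the small subunit, Rps4x (chrX:102184941-102189394, minus strand) had normalised read counts of 4177, 4958 and 4290.1 in the water + PBS mice, 5240.1, 4957 and 4940.4 in the water + Dex mice, 4358, 4766 and 4602 in the ZnSO4 + PBS mice and 5100.4, 5678 and 5579 in the ZnSO4 + Dex mice. Water + PBS mouse 2 lay within the range of the water + Dex mice, and the ZnSO4 groups did not overlap. Its mean Dex LFC was 0.21 ± 0.061 (SE, adjusted p = 0.027). Rps6, the ribosomal protein phosphorylated by the S6 kinases below mTORC1 (chr4:86854660-86857412, minus strand), had counts of 1867, 2239 and 1856 in the water + PBS mice, 2334, 2068 and 2105 in the water + Dex mice, 1811, 2070.1 and 1895 in the ZnSO4 + PBS mice and 2162, 2363 and 2492 in the ZnSO4 + Dex mice. Water + PBS mouse 2 lay within the water + Dex range, the ZnSO4 groups did not overlap, and the LFC was 0.20 ± 0.067 (SE, adjusted p = 0.0497).

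Of the large subunit, Rpl13a had counts of 211, 226 and 213 in the water + PBS mice, 264, 234 and 257 in the water + Dex mice, 215, 247 and 250.1 in the ZnSO4 + PBS mice and 279, 278 and 263 in the ZnSO4 + Dex mice. All 3 water + Dex mice lay above all 3 water + PBS mice, and all 3 ZnSO4 + Dex mice above the ZnSO4 + PBS mice, with an LFC of 0.21 ± 0.064 (SE, adjusted p = 0.0371). Rpl10a, a protein of the L1 stalk, had counts of 1774, 1912 and 1636 in the water + PBS mice, 1737, 1995 and 1996 in the water + Dex mice, 1736, 1877 and 1885 in the ZnSO4 + PBS mice and 2054, 2313 and 2369 in the ZnSO4 + Dex mice. The ZnSO4 + Dex mice were higher than all 9 others, water + Dex mouse 1 lay within the range of the water + PBS mice, and the LFC was 0.20 ± 0.061 (SE, adjusted p = 0.0379) on average and 0.29 ± 0.087 (SE, adjusted p = 0.0447) in ZnSO4 mice. Rpl10, which joins the large subunit last in the cytosol, had counts of 3874, 4213 and 3854 in the water + PBS mice, 4771, 4021 and 4286 in the water + Dex mice, 3337, 3793 and 3482 in the ZnSO4 + PBS mice and 3991, 4135 and 4481 in the ZnSO4 + Dex mice. The ZnSO4 + PBS mice were the lowest of all, the water groups overlapped, and the LFC was 0.19 ± 0.062 (SE, adjusted p = 0.0497).

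Rplp0 holds the Rplp1 and Rplp2 dimers of the P stalk, which calls translation factors to the ribosome. Rplp0 had counts of 9857, 9975 and 8998 in the water + PBS mice, 10429, 10466 and 10145 in the water + Dex mice, 8537, 9055 and 8500.0 in the ZnSO4 + PBS mice and 9882, 10951 and 10552 in the ZnSO4 + Dex mice. Dex mice lay above PBS mice within water and within ZnSO4, and the LFC was 0.19 ± 0.06 (SE, adjusted p = 0.0454). For Rplp1 the LFC was 0.13 ± 0.066 (SE, adjusted p = 0.182) and for Rplp2 0.13 ± 0.091 (SE, adjusted p = 0.345), neither called.

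**Figure D4:**
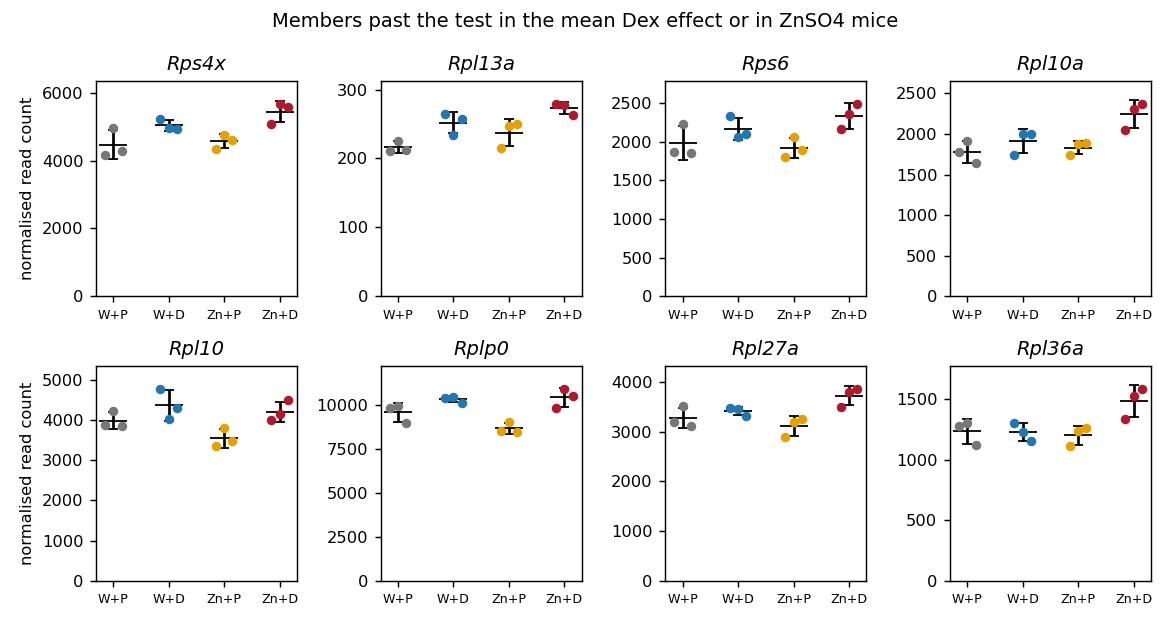
Normalised read counts (axes from 0) of the 8 members past the test in the mean Dex effect or within ZnSO4 mice, with a point per mouse, bars for mean ± SD (n = 3), and W for water, Zn for ZnSO4, P for PBS and D for Dex. The genes were chosen for passing these tests, and the differences between Dex and PBS mice are small against the distance from 0.

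These calls lay close to the threshold. The count in the mean Dex effect was 16 without ZnSO4 + Dex mouse 1, 13 without water + PBS mouse 2, 4 without ZnSO4 + PBS mouse 2 and 0 to 3 without any other mouse. With library totals alone in place of TMM the mean Dex median LFC was 0.051 and that for Dex in water mice -0.055, while the medians of all genes moved to -0.084 and -0.13, so that the members stayed above all genes by a similar amount.

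Zinc alone gave no called member. In ZnSO4 + PBS against water + PBS the median LFC was -0.046, beside -0.013 over all genes, with 13 of 82 members (15.9%) above 0 (48% of all genes). By edgeR 0 were called higher and 0 lower (background 2.11% and 2.54%), against 0 and 1 at an unadjusted p under 0.05 (background 9.54% and 10.3%), and DESeq2 called 0. The lowest p belonged to Rpl7l1 and Rpl10. Rpl7l1, a paralogue of Rpl7 with a role in the making of the large subunit, had normalised counts of 829.8, 856 and 865 in the water + PBS mice, 827, 810.0 and 850.4 in the water + Dex mice, 704, 779.7 and 735 in the ZnSO4 + PBS mice and 799, 769.5 and 840.5 in the ZnSO4 + Dex mice. The ZnSO4 + PBS mice were below all water mice, with an LFC of -0.20 ± 0.062 (SE, adjusted p = 0.0957). Rpl10 had an LFC of -0.17 ± 0.088 (SE, adjusted p = 0.318). In ZnSO4 + PBS against water + PBS the summed markers of plasma cells were lower without overlap (1630 to 2350 CPM against 2586 to 2725). Those of goblet cells (10625 to 12984 CPM against 9513 to 10146) and enteroendocrine cells (215 to 229 CPM against 164 to 203) were higher without overlap. The part of these markers in the members' values was not tested.

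Among mice given Dex, ZnSO4 gave a median LFC of 0.10, beside 0.0074 over all genes, with 77 of 82 members above 0 (51.1% of all genes). By edgeR 0 were called in either direction (background 1.83% higher, 2.54% lower), 5 were higher and 0 lower at an unadjusted p under 0.05 (background 9.56% and 9.57%), and DESeq2 called 0. Rpl36a had an LFC of 0.27 ± 0.09 (SE, adjusted p = 0.126) and Rpl10a of 0.23 ± 0.087 (SE, adjusted p = 0.163). Between these groups the summed markers of T cells (19.8 to 23.4 CPM against 41.3 to 53.1) were lower with ZnSO4 and those of goblet cells (12305 to 14129 CPM against 10921 to 11534), enteroendocrine cells and smooth muscle (1836 to 2667 CPM against 1607 to 1709.5) higher, without overlap, and their part in the members' values was not tested. Averaged over PBS and Dex mice the ZnSO4 effect had a median of 0.026 with 57 members above 0 (49.1% of all genes), and edgeR called 0 (background 6.24% higher, 6.52% lower), with 1 in each direction at an unadjusted p under 0.05 (background 14.3% and 14.1%) and 0 by DESeq2. Rpl7l1 had an LFC of -0.12 ± 0.044 (SE, adjusted p = 0.0888) and Rpl10a of 0.14 ± 0.061 (SE, adjusted p = 0.158).

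With both treatments against the control, ZnSO4 + Dex against water + PBS, 5 members were higher and 0 lower by edgeR (background 11.5% and 11.9%). DESeq2 called 11 higher (13.4%), near the 11.3% of all genes called higher. The median LFC was 0.17, with 75 of 82 above 0 (49.3% of all genes). None of the members called by edgeR also had an LFC above 0.8 in size (9.66% of all genes passed both criteria), and 21 were higher and 1 lower at an unadjusted p under 0.05 (background 17.7% and 18.3%). The members called by edgeR were Rpl10a (0.34 ± 0.087), Rpl13a (0.33 ± 0.091), Rpl7a (0.27 ± 0.079), Rps4x (0.29 ± 0.086) and Rps26 (0.32 ± 0.11) (LFC ± SE), Rpl7a and Rps26 being named after their values were seen. Without 1 mouse at a time the count ran from 0 without water + PBS mouse 3 to 11 without water + PBS mouse 2, with 10 without ZnSO4 + Dex mouse 1, 1 without ZnSO4 + Dex mouse 2 or 3 or water + PBS mouse 1, 3 without water + Dex mouse 2 or 3 and 4 without any other. These 2 groups fitted alone gave 0. Without overlap between these groups, the summed markers of T cells (19.8 to 23.4 CPM against 50.4 to 109.7) and plasma cells were lower, and those of goblet cells (12305 to 14129 CPM against 9513 to 10146), enteroendocrine cells, smooth muscle and proximal enterocytes higher, and their part in the result was not tested.

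Whether Dex acted differently in ZnSO4 and water mice was tested by the interaction. Its median LFC over the members was 0.17 with 79 of 82 above 0 (52.2% of all genes), but edgeR called 0 members and 0 of all genes (background 0%), and DESeq2 0 members. With edgeR 1 member was higher and 0 lower at an unadjusted p under 0.05 (background 2.6% and 2.38%), and the lowest adjusted p of a member was 0.952. The difference between the Dex effects in the ZnSO4 and water mice was not detectable gene by gene with 3 mice a group.

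The paralogues differed from their parents in level. Rpl10l was at 0 in all libraries, and a count of 0 allows up to 3 reads in a library. Rpl39l had 0 to 3 reads and Rpl3l 0 to 2 reads in a library, while their parents Rpl3, Rpl10 and Rpl39 had 1638 or more. Normalised counts of Rpl3 were 5220.1, 5512 and 4637 in the water + PBS mice, 5687, 5548 and 5572 in the water + Dex mice, 4669.9, 5235 and 5275 in the ZnSO4 + PBS mice and 5387, 6664 and 6222 in the ZnSO4 + Dex mice, and the mean Dex LFC was 0.20 ± 0.07 (SE, adjusted p = 0.0663). Rpl22l1, whose coding bases are 72.7% identical to those of Rpl22, stood at a per-length level of 65.7 ± 5.97, and Rpl22 at 182 ± 19.95. Their mean Dex LFC were 0.15 ± 0.06 and 0.13 ± 0.054, neither called. Rps27l, a target of p53 in other settings, had a per-length level of 324 ± 29.7 beside 661 ± 96.1 for Rps27. It was 1 of the 3 members with a mean Dex LFC below 0, at -0.075 ± 0.058 (SE, adjusted p = 0.408), the others being Rps10, at -0.16 ± 0.19 (SE, adjusted p = 0.607), and Rps19bp1, at -0.075 ± 0.10 (SE, adjusted p = 0.655). Rps27rt has the same coding bases as Rps27 over all 252 positions, so reads from there cannot be told apart, and the low counts of Rps27rt (20, 21, 21 in water + PBS, 27, 23, 12 in water + Dex, 11, 29, 24 in ZnSO4 + PBS, 17, 32, 25 in ZnSO4 + Dex) are uncertain, and its mean Dex LFC was 0.25 ± 0.26 (SE, adjusted p = 0.547). Rps4l, a retrocopy related to Rps4x and not annotated as protein coding, had an LFC of 0.12 ± 0.089 (SE, adjusted p = 0.374). Rpl36al (87.7% identical to Rpl36a) had a mean Dex LFC of 0.051 ± 0.16 (SE, adjusted p = 0.862), and Rpl7l1 of 0.042 ± 0.044 (SE, adjusted p = 0.56). The remaining parents Rpl7 (0.15), Rpl36a (0.15), Rpl39 (0.089) and Rps27 (0.077) were not called either. With library totals alone the small positive LFC of Rpl7l1, Rpl36al, Rps27 and Fau turned negative. Rack1 and Fau were not called in the mean Dex effect. Rack1, a scaffold on the small subunit, had an LFC of 0.17 ± 0.063 (SE, adjusted p = 0.0758). Fau, which encodes a ubiquitin-like protein fused to a small-subunit protein, had an LFC of 0.025 ± 0.063 (SE, adjusted p = 0.825).

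The members varied together from mouse to mouse. After the group means were taken off, the correlation of a member's log2 CPM with the median of the other members over 12 libraries had a median of 0.91 and was above 0.8 for 60 of 82 members. This is a description, since the points share library and depth. Because the members moved together, the numbers of members above 0, under an unadjusted p or without overlap are not numbers of independent results. In each group the mouse with the highest summed B cell markers was also the one with the highest median deviation of the members (log2), water + PBS mouse 2 (697 CPM, 0.12), water + Dex mouse 1 (259 CPM, 0.068), ZnSO4 + PBS mouse 2 (520.0 CPM, 0.080) and ZnSO4 + Dex mouse 3 (76.4 CPM, 0.094). The summed T cell markers were highest in the same mice, at 109.7, 53.1, 66.9 and 23.4 CPM in this order. The part of either marker list in the shared variation was not tested, and a fit with a B cell marker covariate is given with the processing. Among the most alike were Rpl37a (0.99), Rps19 (0.98) and Rps29 (0.98). The least alike were Rps10 (0.28), which had 14 to 43 reads a library, Rps27l (0.32), Rpl7l1 (0.37), Rps19bp1 (0.41), Rpl15 (0.43) and Rpl13a (0.45). Next in that order were the paralogues Rpl36al (0.52) and Rpl22l1 (0.58), so that 4 of the 5 tested paralogues and Rps19bp1 were among the 8 least alike. The median SD within a group was 0.11 (log2) for the members, 0.19 for all genes tested and 0.12 for the 4640 genes with at least 500 normalised counts.

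Genes that work with the ribosomal proteins were followed by lists. Translation factors and other TOP mRNAs had values above 0 like the members, and 10 of 18 rose with Dex on average and 0 fell, and all 18 LFC were above 0, with a median of 0.19, beside 10.4% of all genes called higher. Eif3l, a subunit of the initiation factor eIF3, had normalised counts of 1428, 1482 and 1403 in the water + PBS mice, 1632, 1660.0 and 1708 in the water + Dex mice, 1419, 1403 and 1449 in the ZnSO4 + PBS mice and 1662, 1856 and 1561 in the ZnSO4 + Dex mice. All 6 Dex mice lay above all 6 PBS mice, with an LFC of 0.23 ± 0.049 (SE, adjusted p = 0.00522). Btf3, which guides nascent chains, had an LFC of 0.18 ± 0.045 (SE, adjusted p = 0.0127), and Eif4b, a helper of the initiation helicase, of 0.20 ± 0.055 (SE, adjusted p = 0.023) with Dex and 0.28 ± 0.055 (SE, adjusted p = 0.00712) with ZnSO4, where it was the only one of the 18 called. The Dex call of Eif4b was kept in 6 of the 12 fits that left out a mouse. With library totals alone 0 of the 18 were called with Dex, at a median of 0.10. Of the host genes of small nucleolar RNAs, whose spliced transcripts also begin with TOP motifs, 5 of 6 rose with Dex (median 0.44, background 10.4%) and 2 with ZnSO4 (background 6.24%). Snhg1 had counts of 181, 211 and 189 in the water + PBS mice, 269, 298 and 305 in the water + Dex mice, 215, 252 and 289.9 in the ZnSO4 + PBS mice and 353, 384 and 376 in the ZnSO4 + Dex mice. Its Dex mice were higher than its PBS mice but for ZnSO4 + PBS mouse 3, which was above water + Dex mouse 1, with an LFC of 0.57 ± 0.081 (SE, adjusted p = 0.000341) for Dex and 0.37 ± 0.081 (SE, adjusted p = 0.0125) for ZnSO4. Gas5 had an LFC of 0.32 ± 0.07 (SE, adjusted p = 0.00644) for Dex and 0.29 ± 0.07 (SE, adjusted p = 0.0186) for ZnSO4, and Snhg5 of 0.61 ± 0.13 (SE, adjusted p = 0.00615) for Dex.

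Of ribosome biogenesis factors, few changed with Dex, with 1 of 32 higher and 1 lower (background 10.4% and 11.2%) and a median LFC of 0.016. Ubtf, the factor that opens rRNA genes to RNA polymerase I, had normalised counts of 1523, 1667 and 1579 in the water + PBS mice, 1054, 1091 and 1047 in the water + Dex mice, 1495, 1443 and 1296 in the ZnSO4 + PBS mice and 999.5, 1088 and 1056 in the ZnSO4 + Dex mice. All Dex mice lay below all PBS mice, and it fell by 0.50 ± 0.05 (SE, adjusted p = 2.25e-05) on the log2 scale. Pwp1, a factor of rRNA processing, had an LFC of 0.29 ± 0.066 (SE, adjusted p = 0.00871). With ZnSO4 on average, 6 of the 32 fell and 0 rose (background 6.52% lower), with a median of -0.17 and 2 of 32 LFC above 0. Nop2, an rRNA methyltransferase, had an LFC of -0.32 ± 0.068 (SE, adjusted p = 0.00961). With library totals alone 1 of the 32 was called lower with ZnSO4. In PBS mice alone, with TMM scaling, 8 of the 32 were called lower with ZnSO4 and 0 higher (background 2.54% and 2.11%). The median LFC there was -0.28, and 1 of the 32 was above 0.

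In the Myc network, which drives ribosome biogenesis in growing cells, Myc fell with Dex and so did Mnt, a repressor that binds the same sites, while Mycn rose from low counts. Myc had normalised counts of 339.5, 462 and 376 in the water + PBS mice, 289.9, 257 and 223 in the water + Dex mice, 281, 357 and 344 in the ZnSO4 + PBS mice and 219, 260.4 and 198 in the ZnSO4 + Dex mice, with 1 overlap, of water + Dex mouse 1 and ZnSO4 + PBS mouse 1. The LFC was -0.57 ± 0.11 (SE, adjusted p = 0.0025) for Myc, -0.52 ± 0.078 (SE, adjusted p = 0.000501) for Mnt and 0.67 ± 0.19 (SE, adjusted p = 0.0304) for Mycn, whose call was kept in 3 of the 12 fits that left out a mouse. Of the 5 genes of the network 1 rose and 2 fell with Dex (background 10.4% higher, 11.2% lower), and 0 were called with ZnSO4 (background 6.24% and 6.52%). In the mTORC1 pathway 8 of 20 rose with Dex and 2 fell (median 0.11, background 10.4% higher and 11.2% lower), the share that fell being no more than the background. Ddit4, an inhibitor of mTORC1 and a known glucocorticoid target, had counts of 263, 453 and 268 in the water + PBS mice, 6240.1, 5986 and 5755 in the water + Dex mice, 280.0, 369 and 307 in the ZnSO4 + PBS mice and 6885, 5729 and 6184 in the ZnSO4 + Dex mice. All Dex mice lay far above all PBS mice, with an LFC of 4.25 ± 0.14 (SE, adjusted p = 9.43e-09). Sesn1, which restrains mTORC1 when leucine is low, had an LFC of 2.05 ± 0.10 (SE, adjusted p = 1.35e-07), and Rheb, the GTPase that turns mTORC1 on, of 0.33 ± 0.05 (SE, adjusted p = 0.000495). With ZnSO4 2 of the 20 were higher and 1 lower (background 6.24% and 6.52%). Named after their values were seen, the genes called were Deptor, an inhibitor of mTORC1 and mTORC2, at 0.40 ± 0.071 (SE, adjusted p = 0.00354), Eif4ebp1, a repressor of eIF4E, at 0.30 ± 0.089 (SE, adjusted p = 0.0461), and Eif4e, the cap-binding factor, at -0.28 ± 0.056 (SE, adjusted p = 0.0072).

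**Figure D5:**
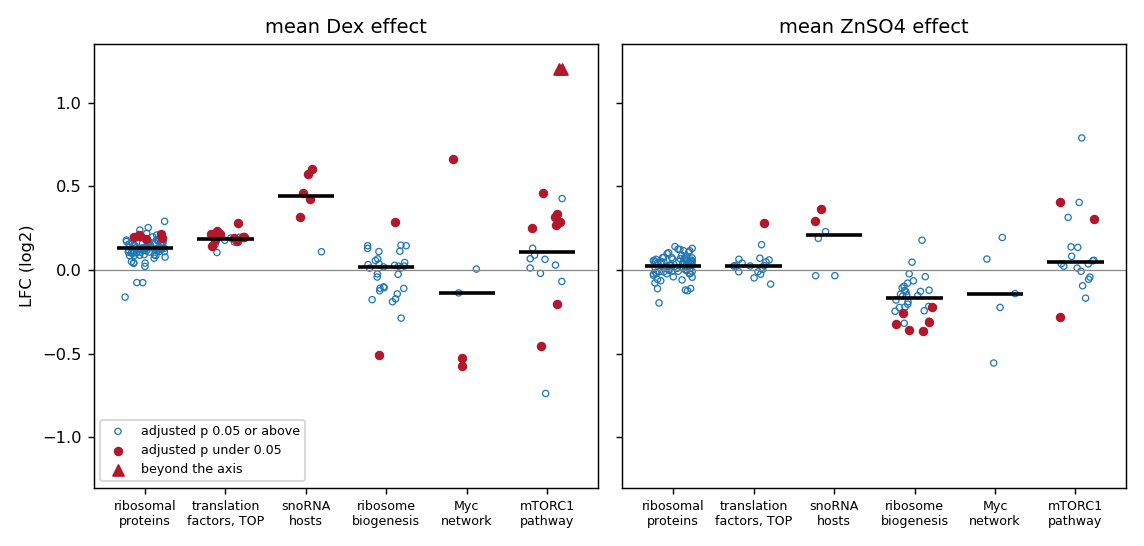
LFC (log2) in the mean Dex effect (left) and the mean ZnSO4 effect (right) for the members and 5 lists of genes that work with them, with filled points at an adjusted p under 0.05 by edgeR, bars for medians and triangles for Ddit4 and Sesn1 beyond the axis. With Dex the members and the TOP mRNAs lie just above 0 and 5 of 6 snoRNA host genes rose, while with ZnSO4 the biogenesis factors lie mostly below 0.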

How the data were processed

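Total RNA of the ileum of 12 mice was sequenced by the authors from stranded TruSeq libraries (single-end). Per the paper's methods and the processing notes of the submitters, reads were mapped to mm10 with HISAT2 2.0.4 and counted per gene with featureCounts, multimapping reads left out, with Trimmomatic, SAMtools and DESeq2 also named. The annotation release and the strand setting are not given in the sources used here. The deposited table holds raw counts per Ensembl gene, 1 column a mouse. Leaving out multimapping reads can lower the counts of genes that share sequence with pseudogenes, as many members do.

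Each symbol and gene type came from GENCODE gene models on GRCm38 (54809 of 54838 identifiers matched), and start windows from RefSeq on GRCm38 (66 of 86 members matched). Genes were kept by edgeR's filterByExpr (minimum count 10), scaled with TMM factors, and tested with edgeR 4.0.16's quasi-likelihood test (R 4.3.3) in a model of 4 groups, with Benjamini-Hochberg adjustment over 15938 genes. A gene was called at an adjusted p under 0.05. The mean Dex effect averages the Dex LFC in water and ZnSO4 mice, the mean ZnSO4 effect that in PBS and Dex mice, and the interaction is the Dex LFC in ZnSO4 mice less that in water mice. Comparisons that share a group are not independent. Normalised counts are counts divided by the TMM-scaled library size, times the mean such size. Replicates are separate mice, and the depth of 10760132 to 11827487 counts a mouse limits the precision of members of few reads. With 3 mice against 3 an exact permutation test of a single value cannot go below p = 0.1. On simulated counts for the mean Dex effect (15747 genes), 0% of 100 genes changed by 0.25 on the log2 scale were recovered by edgeR and 4% by DESeq2 1.42.0, and 91% and 92% of those changed by 1. Only these genes were changed, whereas in the data edgeR called 10.4% of all genes higher and 11.2% lower in this effect. The adjusted p depends on how many genes change, so these shares do not give the power for the members.

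The members, lists, tests and alternatives were chosen with earlier results of these data known. Named were paralogues, their parents, the P stalk, Rps19bp1, Fau and Rack1, the up to 5 largest called changes in each direction or else the 2 lowest p, the 5 highest and lowest per-length levels, and up to 3 genes of each other list with the lowest adjusted p, some of which are not reported here. The alternatives were DESeq2, other scaling factors, TMM factors without the members, other filters, a replicate block, fits of only the groups compared, a B cell marker covariate, other call rules, other lengths and leaving out each mouse.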

Additional observations from a re-analysis of the deposited data

How the results depend on the processing

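The counts of called members depended on the processing, and the cause was not tested. For Dex in ZnSO4 mice, for ZnSO4 + Dex against water + PBS and for the mean Dex effect the counts were 3, 5 and 6, all higher. With DESeq2 they were 10, 11 and 16 (12.2%, 13.4% and 19.5% of the members, background 6.88%, 11.3% and 10.5% of all genes called higher). With a B cell marker covariate they were 11, 9 and 11. The median LFC in that fit were 0.25, 0.23 and 0.17, beside 0.22, 0.17 and 0.13 without the covariate. The share over all genes was not taken for this and the other fits. With all genes of at least 1 count kept they were 0, 1 and 0, with the added criterion of an LFC above 0.8 they were 0, 0 and 0, and with library totals alone, an alternative added after seeing the data, 0, 3 and 0. Upper-quartile factors gave 10 and 2 in the last 2, RLE factors 0 in the first, a filter at 10 counts in all 12 libraries 8 in the second, and fits of only the groups compared 0 in the first 2. No such fit could be made for the mean effects and the interaction, which need all 4 groups. At an unadjusted p under 0.05 the numbers were 46, 21 and 32 higher, with 1 lower in the second. At that threshold 1 was higher for Dex in water mice, for the mean ZnSO4 effect and for the interaction, 5 for ZnSO4 in Dex mice, and 1 was lower for ZnSO4 in PBS mice and for the mean ZnSO4 effect. Leaving out each mouse in turn gave 0 to 6, 0 to 11 and 0 to 16 called members, and 0 in the other comparisons.

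Median LFC over such fits ran from 0.16 to 0.28 for Dex in ZnSO4 mice, -3.2e-05 to 0.12 for Dex in water mice, 0.11 to 0.17 for the mean Dex effect, -0.10 to 0.011 for ZnSO4 in PBS mice, 0.061 to 0.17 in Dex mice, 0.0052 to 0.054 for the mean ZnSO4 effect, 0.12 to 0.23 for ZnSO4 + Dex against water + PBS and 0.10 to 0.23 for the interaction. With library totals alone the median was -0.055 for Dex in water mice and 0.22 for ZnSO4 in Dex mice, where 1 member was called, as in the mean ZnSO4 effect, while the median of all genes moved to -0.13 and 0.12. In the mean Dex effect library totals alone turned the sign of 4 named genes that were not called, Rpl7l1 (-0.042), Rpl36al (-0.028), Rps27 (-0.0070) and Fau (-0.060). Leaving out a mouse turned that of Rpl36al (-0.021 to 0.15) and Fau (-0.027 to 0.055).

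The replicate block gave 1 called member for Dex in ZnSO4 mice and 2 in the mean Dex effect. Mice with the same number in different groups share only that number: their deviations from the group means correlated at a median of -0.056 over 18 pairs, against 0.023 over 36 pairs of different numbers. The ratio of the highest to the lowest per-length level was 1214, and 4021 and 5469 with uniquely placed stretches of all transcripts or of the coding transcript as length, the last chosen after seeing the data. In all, 1021 of 1185 alternative values of named genes kept their direction and their side of the threshold.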

Other observations

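The ribosomal proteins of mitochondria, which are encoded by other nuclear genes, were followed by symbol (78 genes, 77 tested). With Dex on average 2 rose and 2 fell (background 10.4% higher, 11.2% lower), with a median LFC of 0.014 and 42 of 77 above 0. Mrps31 had an LFC of -0.36 ± 0.056 (SE, adjusted p = 0.000662), Mrpl43 of -0.25 ± 0.067 (SE, adjusted p = 0.018) and Mrps35 of 0.22 ± 0.054 (SE, adjusted p = 0.0124). With ZnSO4 on average 0 rose and 2 fell (background 6.24% and 6.52%), with a median of -0.036.

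Rpl13a is also in common use as a reference gene for qPCR. Of 8 such genes 2 rose with Dex on average and 0 fell (background 10.4% higher, 11.2% lower), with a median LFC of 0.072. Rpl13a, given above with its values, was among those that rose, and its call was kept in 5 of the 12 fits that left out a mouse. With ZnSO4 1 of the 8 fell and 0 rose (background 6.52% lower, 6.24% higher). B2m, the light chain of MHC class I, had normalised counts of 21069.9, 22047 and 20665 in the water + PBS mice, 24483, 28610.1 and 25131 in the water + Dex mice, 13153, 13194 and 12354 in the ZnSO4 + PBS mice and 16456, 11144 and 14634 in the ZnSO4 + Dex mice. The 6 ZnSO4 mice were all below the 6 water mice, with an LFC of -0.81 ± 0.10 (SE, adjusted p = 0.000432) for ZnSO4.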
